A study of Mus musculus with 6 samples.

Results

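The 45 genes described here run the cell division cycle, from the G1 cyclins through DNA replication to the spindle and the checkpoint kinases of mitosis. They were chosen by name, with earlier results of these data known. Each was read from the brightest probe set annotated to that gene alone, with no filter on intensity. Of the 45, 44 had such a probe set, among 12393 genes measured in all; the exception was Ccnb1, cyclin B1, which has no value here. Livers of 3 Chga knockout and 3 wild-type mice, all males of 12 weeks, were each measured on 1 Affymetrix array. Chga encodes chromogranin A, an acidic protein of hormone-storing secretory granules. The labels call the knockout by its published line alone; the genetic background of either group, feeding state and hour of dissection are not given in the sources used here. All groups share sex, age and tissue, and no treatment is named. Each test below rests on the spread among these 6 arrays alone.

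Cell division is driven by cyclin-dependent kinases. D cyclins with Cdk4 and Cdk6, then E cyclins with Cdk2, phosphorylate the retinoblastoma protein and free E2F factors, which switch on the genes of DNA replication. A and B cyclins with Cdk1 then carry the cell into mitosis, under the watch of the spindle checkpoint. Hepatocytes of adult liver are mostly quiescent and re-enter the cycle after loss of tissue, so the mitotic genes are usually low in resting liver, whereas D cyclins and Pcna have a standing level.

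The start sites of these genes carry letters known from cell cycle promoters. The 250 bases before the RefSeq start of each gene (assembly GRCm38.p6) were searched on both strands for CCAAT, for the cell cycle homology region (CHR, TTTGAA or TTCGAA) and for an E2F core (TTTCGCGC or TTTGGCGC); a match of one cannot lie inside a match of another. A window was given for 36 of the 45 genes, and 9 genes (Aurkb, Rb1, Ccnd1, Mcm4, Ccna2, Wee1, Ccne2, Foxm1 and Ccnd2) had none. Below are the windows of Cdk1 and Mki67, which hold both CCAAT and CHR letters and whose signals were weak, and of Rrm2 and Cdk4, whose groups did not overlap in opposite directions. Each is written 5′ to 3′ on the gene's strand, with motif matches in capitals (ATTGG is CCAAT on the other strand).
Cdk1, chr10:69352913-69353162, minus strand: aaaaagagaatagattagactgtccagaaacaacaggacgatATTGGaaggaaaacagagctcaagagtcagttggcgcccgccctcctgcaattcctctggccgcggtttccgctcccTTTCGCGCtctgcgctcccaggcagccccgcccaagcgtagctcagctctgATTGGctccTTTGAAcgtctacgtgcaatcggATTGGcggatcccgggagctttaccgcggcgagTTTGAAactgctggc
Mki67, chr7:135716380-135716629, minus strand: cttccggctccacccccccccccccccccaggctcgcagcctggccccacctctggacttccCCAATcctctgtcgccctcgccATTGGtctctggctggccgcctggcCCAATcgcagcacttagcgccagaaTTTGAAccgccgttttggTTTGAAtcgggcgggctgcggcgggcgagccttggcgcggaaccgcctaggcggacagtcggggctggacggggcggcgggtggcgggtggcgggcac
Rrm2, chr12:24708004-24708253, plus strand: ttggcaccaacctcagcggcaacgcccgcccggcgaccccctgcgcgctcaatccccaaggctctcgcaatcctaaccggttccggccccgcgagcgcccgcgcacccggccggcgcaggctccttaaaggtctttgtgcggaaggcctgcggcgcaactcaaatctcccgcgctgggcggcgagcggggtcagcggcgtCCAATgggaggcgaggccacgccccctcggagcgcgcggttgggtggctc
Cdk4, chr10:127063285-127063534, plus strand: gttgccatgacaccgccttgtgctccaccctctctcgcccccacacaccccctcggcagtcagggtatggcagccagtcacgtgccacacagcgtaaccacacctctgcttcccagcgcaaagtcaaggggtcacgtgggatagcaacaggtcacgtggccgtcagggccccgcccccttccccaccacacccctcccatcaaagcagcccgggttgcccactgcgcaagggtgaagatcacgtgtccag
The Cdk1 window held 3 CCAAT, 2 CHR and 1 E2F match, the Mki67 window 3 CCAAT and 2 CHR matches, the Rrm2 window 1 CCAAT match, and the Cdk4 window none.

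CCAAT stood in 24 of the 36 windows (66.7%), against 34.5% of all 27025 windows, and CHR in 9 of 36, against 17.4%. The E2F core stood in 4 windows (11.1%), against 0.673% of all. The 27025 windows were not limited by gene type or to the genes measured here. They may therefore differ from the 36 in other ways. The 3 roles differed in these letters. Among genes of mitosis, 12 of 14 windows held CCAAT (85.7%) and 7 of 14 held CHR (50.0%). Among genes of DNA replication and nucleotide supply, 9 of 12 held CCAAT and 2 held CHR. Among G1 genes, 3 of 10 held CCAAT and none held CHR, nor an E2F core. These matches describe letters only; no binding was measured.

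The signal on the arrays also differed by role. A gene was called above background on an array where its intensity, in arbitrary units, passed the 95th percentile of 27 Bacillus control probe sets, whose targets mouse RNA should lack; this reference ran from 151 to 322 over the 6 arrays. By that rule 23 of the 44 genes (52.3%) were above background on all 6 arrays, 18 on 1 to 5 arrays and 3 on none (Ccnb2, Cdc6 and Bub1b), against 62.0% of all 12393 genes on all 6. Of the G1 cyclins, kinases and brakes, 11 of 14 were above background throughout (78.6%). Of the genes of DNA replication and nucleotide supply, 8 of 13 were (61.5%). Of the genes of mitotic entry, spindle and division, 4 of 17 were (23.5%), namely Wee1, Mad2l1, Cdc20 and Cenpa. Set against the median control in place of the 95th percentile, 30 of the 44 genes were above background on all arrays, against 10127 of all 12393 genes.

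**Figure D1:**
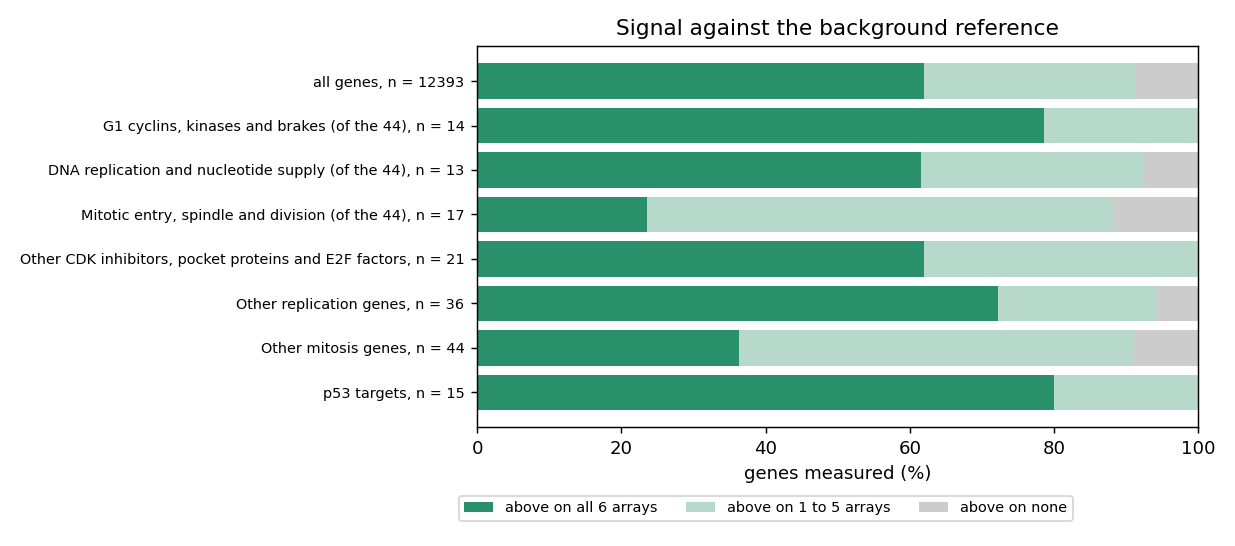
Percent of measured genes above background on all 6 arrays, on 1 to 5 arrays or on none, as stacked bars for all 12393 genes, for the 44 genes by role, and for 4 lists of other cell cycle genes. The share above background on all 6 arrays is 78.6% for G1 genes and 23.5% for mitosis genes, and the other mitosis genes are likewise the lowest of the other lists (16 of 44).

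The array's own reference differed between samples, highest on knockout array 2 (322) and lowest on wild-type array 2 (151). The number of these genes above background was 30, 26 and 32 on the knockout arrays and 29, 35 and 34 on the wild-type arrays. The lowest count fell on the array with the highest reference. Over the whole array, 64.4% to 76.9% of probe sets passed the reference, lowest on knockout array 2. No 2 arrays held identical values, and their correlation over log2 values was 0.933 to 0.937 among knockout, 0.942 to 0.948 among wild-type and 0.933 to 0.943 across groups. The 1 Chga probe set was above background on 1 array of each group, at 61.5, 44.5 and 231 in knockout and 167, 185 and 42.5 in wild type, so it did not check the genotype labels.

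No gene of the 44 passed the test between knockout and wild type. On log2(intensity + 16), limma with Benjamini-Hochberg adjustment over all 22626 probe sets called 0 of the 44 at 0.05, where 0.202% of all genes were called (25 of 12393); the lowest adjusted p among the 44 was 0.521. At an unadjusted p under 0.05 were 4 of the 44 (9.09%), against 8.16% of all genes: 2 with higher knockout means, E2f1 and Rrm2 (3.79% of all genes), and 2 with lower ones, Ccnd1 and Cdk4 (4.37% of all genes). The groups did not overlap for 5 of the 44 (11.4%), against 13.6% of all genes: Rrm2 and Kif11 higher, Ccnd1, Cdk4 and Cdkn2c lower. Both shares lay near those of all genes. The count of 4 was 1 without wild-type array 1 and 2 without knockout array 1, wild-type array 2 or wild-type array 3.

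The median difference over the 44 genes, knockout minus wild type, was -0.095 on the log2 scale, with 15 above and 29 below 0. Over all genes the median was -0.0034, with 6249 of 12393 below 0. The median over the 44 was 0.015 without knockout array 1 and -0.16 without wild-type array 3. By role, the median was -0.23 for G1 genes, with 11 of 14 below 0. It was -0.017 for replication genes, with 8 of 13 below 0, and -0.12 for mitosis genes, with 10 of 17 below 0. Under quantile normalization or median centring of each array, 10 of 14 G1 genes were below 0. The role medians also depended on single arrays. Without knockout array 3, the G1 median was -0.10, with 8 of 14 below 0. Without knockout array 1, the replication median was 0.058, with 3 of 13 below 0, and the mitosis median was 0.024, with 8 of 17 below 0. Without wild-type array 2, the G1 median was -0.13, the replication median 0.027 and the mitosis median -0.030. These counts include the genes near background, whose signs rest on weak signals.

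**Figure D2:**
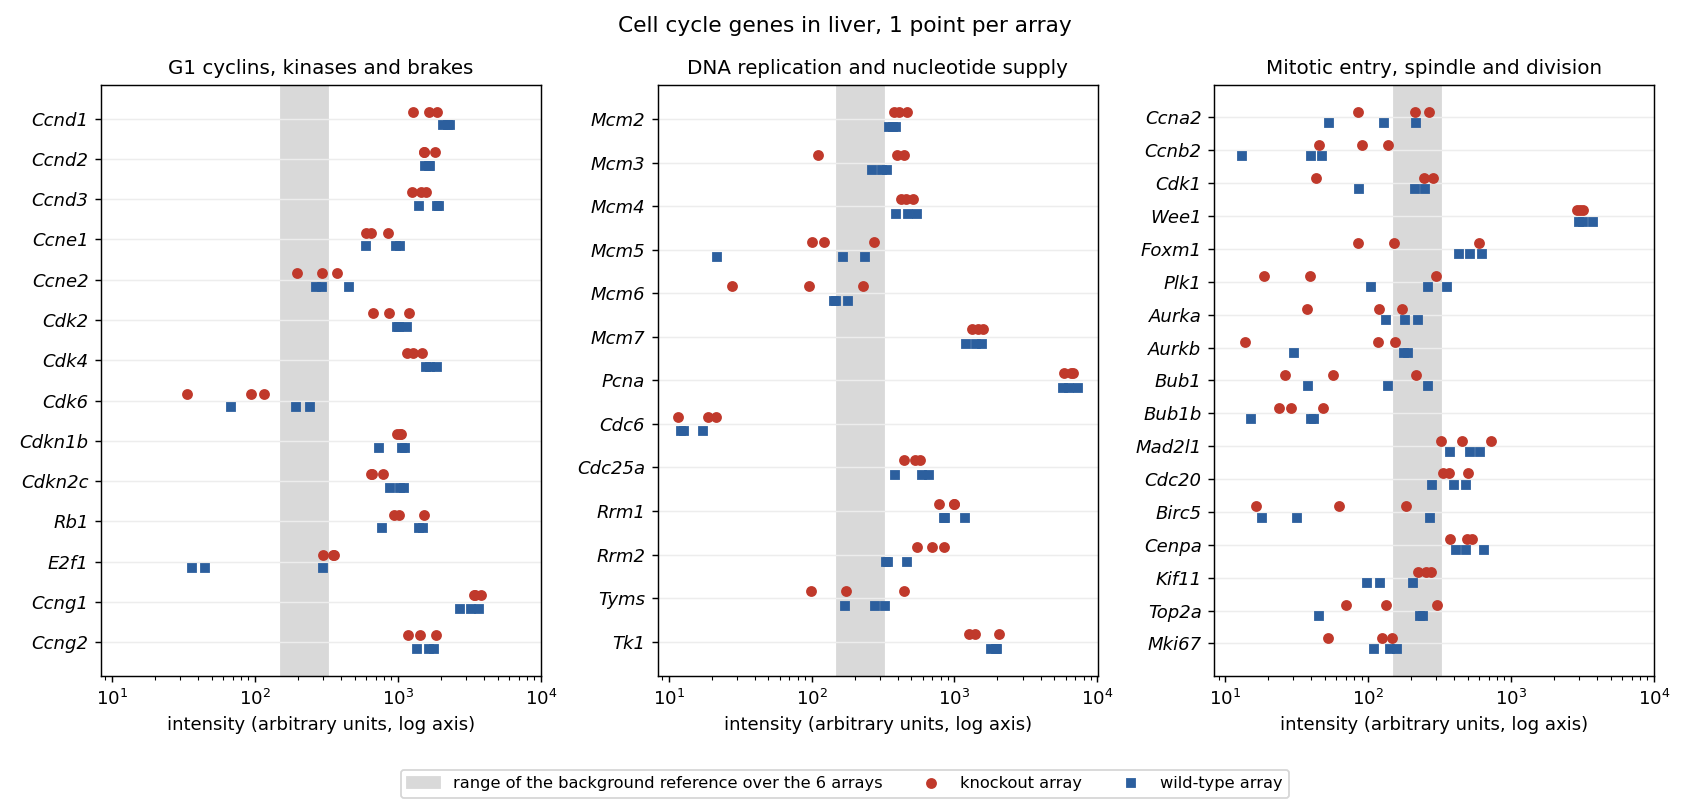
Intensity (arbitrary units, log axis) of each gene on each array, knockout as circles and wild type as squares; the grey band spans the background reference over the 6 arrays, 151 to 322. Most mitosis genes lie in or below the band, and the 2 groups overlap for 39 of the 44 genes.

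The D cyclins are the growth-factor-responsive partners of Cdk4 and Cdk6. Ccnd1 (cyclin D1) read 1269, 1662 and 1883 in knockout and 2229, 2299 and 2078 in wild type. Every knockout array lay below every wild-type array, with means of 1604 ± 311 and 2202 ± 113 (SD, n = 3). The difference was -0.47 ± 0.17 (SE), with a 95% interval from -0.85 to -0.09, or 1.39-fold higher in wild type, and did not pass (limma adjusted p = 0.521). The other Ccnd1 probe sets differed by -0.22 and -0.05, with overlapping groups, so the separation was seen on 1 of 3 probe sets. Ccnd2 read 1527, 1832 and 1513 in knockout and 1556, 1683 and 1652 in wild type. The groups overlapped and differed by -0.01, with an interval from -0.36 to 0.34. The 7 Ccnd2 probe sets ran from -0.20 to 1.23, the last on a probe set below background on all arrays. Those above background on all arrays ran from -0.08 to 0.54. Ccnd3 read 1568, 1443 and 1249 in knockout and 1873, 1409 and 1951 in wild type, a difference of -0.29 ± 0.18 (limma adjusted p = 0.755) with overlapping groups.

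Cdk4, the kinase bound by D cyclins, read 1269, 1164 and 1472 in knockout and 1685, 1565 and 1883 in wild type. The groups did not overlap, at means of 1302 ± 156 and 1711 ± 161 (SD, n = 3). The difference was -0.39 ± 0.17 (SE), interval -0.77 to -0.01, with a limma adjusted p of 0.615. This probe set is of a type that can share sequence with other transcripts, and the other Cdk4 probe sets differed by -0.25 and 0.00 with overlapping groups. Cdk2, the partner of E cyclins, read 1202, 867 and 666 in knockout and 1020, 1153 and 978 in wild type, which overlap. Cdk6 was at 33.3, 93.8 and 115 in knockout, below background on all 3, and at 67.5, 244 and 193 in wild type, so no fold is given (limma adjusted p = 0.794).

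Cyclin E1 (Ccne1) read 857, 650 and 603 in knockout and 1030, 595 and 974 in wild type. Cyclin E2 (Ccne2) read 374, 295 and 197 in knockout and 292, 457 and 266 in wild type, close to background. Both overlapped, at -0.27 ± 0.30 and -0.22 ± 0.47.

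Among the brakes, Cdkn2c (p18, an inhibitor of Cdk4 and Cdk6) read 787, 660 and 651 in knockout and 1028, 1106 and 883 in wild type. All knockout arrays were below all wild-type arrays, at means of 699 ± 76 and 1006 ± 113 (SD, n = 3). Its single probe set differed by -0.51 ± 0.24, interval -1.04 to 0.01 (limma adjusted p = 0.637). On their brightest probe sets, the inhibitor and its target Cdk4 both had lower knockout means, neither past the test. The other Cdk4 probe sets differed by -0.25 and 0.00, with overlap. Cdkn1b (p27, an inhibitor of Cdk2 complexes) read 986, 1043 and 1057 in knockout and 1070, 733 and 1113 in wild type, and overlapped. The retinoblastoma gene Rb1 read 1516, 932 and 1020 in knockout and 769, 1412 and 1492 in wild type, spread as widely within as between groups.

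E2f1, the activator released from the retinoblastoma protein, read 298, 356 and 350 in knockout and 36.2, 44.7 and 299 in wild type. Above background were 3 knockout arrays and 1 wild-type array, and wild-type array 3 lay within the knockout range. The fitted difference was 1.81 ± 0.73 (limma adjusted p = 0.571), and was the largest among the 44 genes. Its other probe set read 132, 50.7 and 456 in knockout and 75.2, 43.4 and 510 in wild type, a difference of 0.23 ± 0.94, so the probe sets of E2f1 gave different pictures of the same arrays. Ccng1, a p53-induced cyclin, was at 3835, 3484 and 3389 in knockout and 2718, 3683 and 3233 in wild type. Its difference was 0.16, with an interval from -0.14 to 0.46 over a narrow spread. Ccng2, a cyclin linked to cell cycle arrest, read 1438, 1176 and 1835 in knockout and 1356, 1663 and 1800 in wild type.

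**Figure D3:**
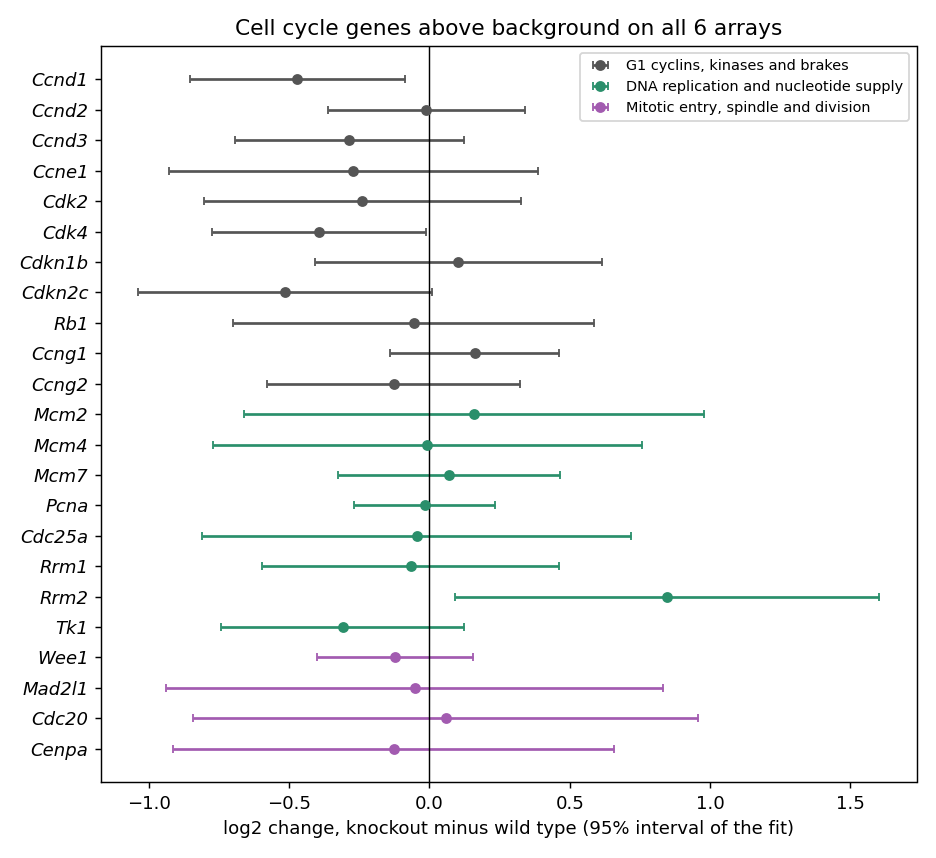
Difference between knockout and wild type (log2, knockout minus wild type) with its 95% interval, for the 23 genes above background on all 6 arrays, coloured by role. The intervals of Ccnd1 and Cdk4 lie below 0 and that of Rrm2 above 0, none passing after adjustment; that of Pcna is among the narrowest, from -0.27 to 0.23.

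Of the replication genes, Rrm2 differed most. Rrm2 encodes the small subunit of ribonucleotide reductase, which makes deoxynucleotides and is made chiefly in S phase. Its brightest probe set, also of the type that can share sequence, read 700, 551 and 841 in knockout and 464, 333 and 342 in wild type. All knockout arrays were above all wild-type arrays, at means of 697 ± 145 and 379 ± 73.2 (SD, n = 3). The difference was 0.85 ± 0.34 (SE), or 1.80-fold, interval 0.09 to 1.60, and did not pass (limma adjusted p = 0.571). The second probe set read 473, 338 and 314 in knockout and 237, 190 and 227 in wild type, again without overlap, at 0.72 ± 0.45. The dimmest read 370, 96.1 and 200 in knockout and 201, 93.4 and 36.8 in wild type, with overlap, at 0.97 ± 0.72. All 3 Rrm2 probe sets had higher knockout means, although they read the same 6 samples and are no replicates of each other. Rrm2 is the only one of these genes on chromosome 12, which also carries Chga, with 410 protein-coding genes between them in RefSeq order. Any link between that position and the Rrm2 values was not tested.

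The large subunit, Rrm1, read 774, 985 and 987 in knockout and 862, 849 and 1186 in wild type, a difference of -0.07 ± 0.24 with overlapping groups. Tk1, thymidine kinase of the salvage route, read 1263, 2058 and 1386 in knockout and 1795, 1950 and 1973 in wild type, at -0.31 ± 0.20, and overlapped. Tyms, thymidylate synthase, was near background at 99.6, 443 and 175 in knockout and 324, 170 and 278 in wild type, with overlap. A dimmer Tyms probe set, above background on 1 array, was singled out after its values were seen. It read 47.7, 104 and 61.2 in knockout and 111, 183 and 125 in wild type, without overlap, at -0.86 ± 0.58. The remaining Tyms probe set, also above background on 1 array, went the other way, at 0.30 ± 0.78 with overlap.

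Pcna, the sliding clamp of DNA polymerase and a standard marker of replicating cells, was read with the smallest standard error among the 44 genes. It was at 6793, 6486 and 5860 in knockout and 5763, 7272 and 6378 in wild type. The groups overlapped and differed by -0.02 ± 0.11, with an interval from -0.27 to 0.23. Of the 6 subunits of the Mcm helicase, Mcm2, Mcm4 and Mcm7 were above background on all arrays. Mcm2 read 380, 406 and 467 in knockout and 348, 393 and 374 in wild type. Mcm4 read 422, 458 and 515 in knockout and 551, 390 and 471 in wild type. Mcm7 read 1595, 1470 and 1319 in knockout and 1204, 1410 and 1567 in wild type. These 3 overlapped, with differences of 0.16, -0.01 and 0.07.

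Mcm5 and Mcm6 were below background on every knockout array and on 2 of 3 wild-type arrays, and Mcm3 on 1 knockout array. Mcm5 read 122, 276 and 101 in knockout and 165, 236 and 21.7 in wild type. Mcm6 read 27.9, 228 and 96.7 in knockout and 143, 150 and 179 in wild type. Both overlapped, and both had their highest value on knockout array 2, where the reference was also highest (322). Mcm3 ran from 112 to 444 in knockout and from 264 to 338 in wild type. Cdc6, which loads the helicase at origins, was listed between 11.6 and 21.6 on every array, below the reference throughout. Cdc25a, the phosphatase that activates Cdk2, read 444, 574 and 534 in knockout and 381, 589 and 666 in wild type, at -0.05 ± 0.35. Its other probe set read 471, 520 and 552 against 199, 237 and 492, at 0.81 ± 0.44, with overlap.

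The mitotic genes gave little signal to compare. Their median standard error was 0.63 on the log2 scale, against 0.23 for the G1 genes and 0.30 for all genes. Mki67, the Ki-67 antigen of cycling cells, read 146, 124 and 52.5 in knockout and 143, 160 and 110 in wild type, above background on 1 wild-type array alone. Top2a, the topoisomerase that untangles sister chromatids, read 304, 70.5 and 134 in knockout and 231, 241 and 45.2 in wild type. Cyclin A2 (Ccna2) read 212, 85.3 and 269 in knockout and 130, 217 and 53.4 in wild type. Cdk1, the mitotic kinase, read 247, 43.1 and 286 in knockout and 214, 250 and 87.1 in wild type. In each of these 4 genes the arrays of a group spanned the background reference or lay below it, and the groups overlapped. The interval for Cdk1 ran from -1.79 to 1.5, which includes a 2-fold difference either way. The number of dividing cells and the RNA per dividing cell cannot be told apart in such bulk RNA.

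Wee1, the kinase that holds Cdk1 inactive and a gene under circadian control in liver, was the clearest signal of this role. Its brightest probe set read 2873, 3037 and 3165 in knockout and 3174, 3753 and 3001 in wild type. These overlapped, at -0.12 ± 0.13, interval -0.40 to 0.16. The second probe set, singled out after its values were seen, read 441, 768 and 648 in knockout and 968, 1702 and 1117 in wild type. There every knockout array was below every wild-type array, at -1.0 ± 0.30, interval -1.67 to -0.34, or 2.0-fold higher in wild type. It did not pass (limma adjusted p = 0.335), which was the lowest adjusted p among all 87 probe sets of these genes; 0.186% of all probe sets were called.

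The other mitotic genes above background throughout did not separate the groups. Mad2l1, a spindle checkpoint protein, read 321, 453 and 719 in knockout and 373, 520 and 608 in wild type. Cdc20, which activates the anaphase-promoting complex, read 370, 501 and 332 in knockout and 398, 281 and 485 in wild type. Cenpa, the histone of centromeres, read 371, 537 and 494 in knockout and 652, 481 and 412 in wild type. Their differences were -0.05, 0.06 and -0.13, each within its standard error.

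Kif11, the kinesin that separates spindle poles, read 255, 225 and 277 in knockout and 99, 122 and 207 in wild type. The groups did not overlap, but 2 knockout arrays and 1 wild-type array were above background, and the difference was 0.81 ± 0.53 (limma adjusted p = 0.759). The other Kif11 probe sets, below background on every array, differed by 0.81 and -0.80. Foxm1, a transcription factor for mitotic genes, read 84.8, 152 and 592 in knockout and 514, 435 and 630 in wild type, above background on 1 knockout and 3 wild-type arrays. Its difference was -1.30 ± 0.63 (limma adjusted p = 0.664), and knockout array 3 lay within the wild-type range. Plk1, a kinase of mitotic entry, read 300, 39.5 and 18.7 in knockout and 358, 262 and 105 in wild type, also with overlap. Birc5, survivin of the chromosomal passenger complex, ran from 16.4 to 183 in knockout and from 18.2 to 272 in wild type.

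On their brightest probe sets, Aurka and Aurkb, the Aurora kinases, and Bub1, of the spindle checkpoint, were below background on every knockout array and above it on at least 1 wild-type array. The other Aurkb probe set showed the reverse, above background on 1 knockout array and on no wild-type array. Aurka read 173, 37.4 and 118 in knockout and 225, 133 and 180 in wild type. Aurkb ran from 13.9 to 154 in knockout and from 30.2 to 189 in wild type, and Bub1 from 26.2 to 215 and from 38 to 264. Ccnb2 (cyclin B2) and Bub1b were below background on all 6 arrays. By brightest probe set, 10 of the 44 genes had a group with no array above background, and no bound on a fold above 1 could be set for any of them.

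Like those of Cdk4 and Rrm2, the brightest probe sets of Mcm4, Mcm6 and Aurkb are of a type that can share sequence with other transcripts. So are those of Fen1 and Anapc5, described below. Agreement between probe sets of a gene was limited. Of the 44 genes, 24 had several probe sets, and 15 of these had differences of both signs. Of the 10 genes with at least 2 probe sets above background on all arrays, 5 had differences of both signs and 5 of 1 sign.

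**Figure D4:**
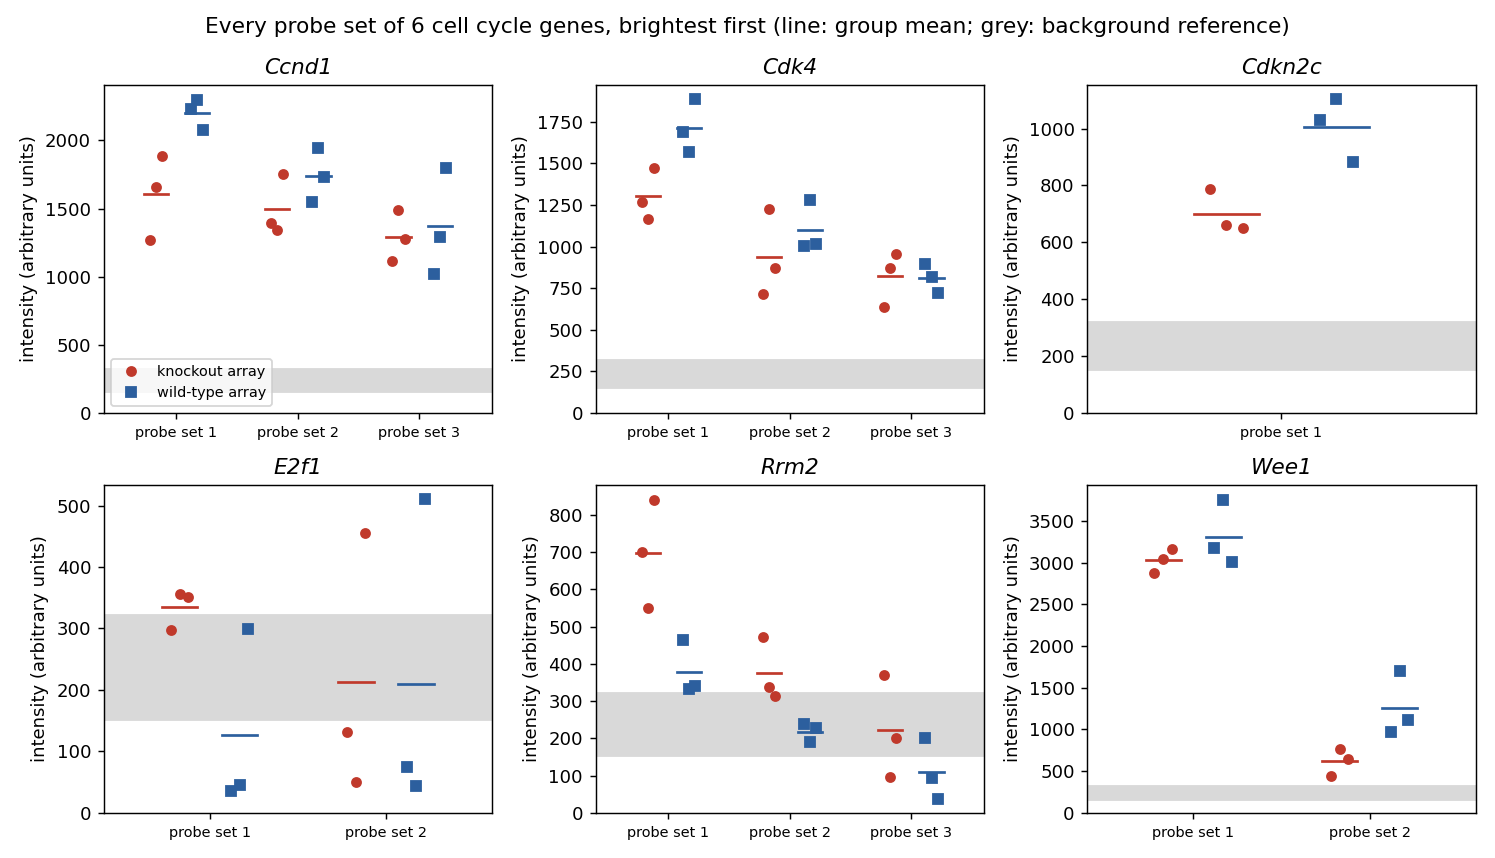
Intensity (arbitrary units, axis from 0) on each array for every probe set of Ccnd1, Cdk4, Cdkn2c, E2f1, Rrm2 and Wee1, brightest first; circles are knockout arrays, squares wild-type arrays, lines group means, and the grey band the background reference (151 to 322). Groups do not overlap on 1 of 3 Ccnd1 and Cdk4 probe sets, on 2 of 3 for Rrm2 and on the dimmer of the Wee1 probe sets.

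Other cell cycle genes also gave no call. Of 128 further genes listed, 115 were measured and 0 were called, with 6 at an unadjusted p under 0.05 (5.22%, against 8.16% of all genes) and a median difference of 0.027. By list, 1 of 21 other inhibitors, pocket proteins and E2F factors, 1 of 36 replication genes, 2 of 44 mitosis genes and 2 of 15 p53 targets were at an unadjusted p under 0.05. Above background on all arrays were 13 of 21, 26 of 36, 16 of 44 and 12 of 15, again lowest for mitosis.

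Plk3, a stress-responsive polo-like kinase and p53 target, came nearest to the threshold. It read 1402, 1417 and 1314 in knockout and 2556, 2277 and 2048 in wild type. The groups lay far apart relative to their spread, at -0.72 ± 0.15, yet the limma adjusted p was 0.124. Cdt1, which licenses origins with Cdc6, read 600, 902 and 938 in knockout and 1438, 1262 and 1227 in wild type, without overlap, at -0.70 ± 0.23 (limma adjusted p = 0.447). E2f6, a repressor of the E2F family, read 2114, 2172 and 1907 in knockout and 2420, 2698 and 2554 in wild type, without overlap, at -0.31 ± 0.13 (limma adjusted p = 0.602). Perp, a p53 target of cell junctions, was 0.20 ± 0.09 higher in knockout mean (limma adjusted p = 0.612).

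In the mitosis list, Ccnf (cyclin F) read 240, 379 and 380 in knockout and 218, 113 and 56.5 in wild type. Only the knockout arrays were above background. With wild type set at its background reference, the knockout mean was 1.74-fold higher, a figure that carries no sampling error. The fitted difference was 1.40 ± 0.59, interval 0.08 to 2.71, with a limma adjusted p of 0.600. Ttk, the checkpoint kinase Mps1, was named after its values were seen: it read 252, 123 and 59.7 in knockout, above background on 1 array, and 17.9, 18.9 and 37.1 in wild type (limma adjusted p = 0.469). Ndc80, a kinetochore protein, differed by 1.67 ± 0.83 with overlapping groups, while Bub3 and Anapc5, of the checkpoint and the anaphase-promoting complex, differed by 0.20 ± 0.12 and 0.22 ± 0.11. Among replication genes, Orc5, of the origin recognition complex, differed by -0.31 ± 0.15, Pold1, a polymerase subunit, by 1.34 ± 0.73, and Fen1, the flap nuclease, by 1.0 ± 0.59. Rbl2 (p130), the pocket protein of quiescent cells, differed by -0.24 ± 0.14, Tfdp1, a partner of E2F proteins, by 0.19 ± 0.14, and E2f8, an atypical E2F repressor, by 1.12 ± 0.84. The p53 targets Zmat3 and Phlda3 differed by -0.90 ± 0.45 and 0.97 ± 0.51. Ccnf, Ndc80, Pold1, E2f8 and Phlda3 were above background on all 3 arrays only in knockout, the group with their higher means. Genes named from these lists had to be so in at least 1 group, and that choice partly sets these differences. Groups overlapped for each gene named so far in this paragraph except Ccnf, Ttk, Orc5 and Rbl2. Cdkn1a (p21), the p53-induced inhibitor, read 213, 536 and 120 in knockout and 80.2, 279 and 202 in wild type, with overlap.

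Other cells of liver divide too, so their markers stand beside these values. The 6 hepatocyte markers measured were above background on every array. Of 11 Kupffer cell and macrophage markers, 9 were above background on all arrays and Marco on none. The intensity summed over all 11 ran from 19907 to 31754 in knockout and 24964 to 33129 in wild type. Of 8 stellate cell markers, 6 were above background throughout. The sum over all 8 ran from 19995 to 25551 in knockout and 23100 to 32062 in wild type. Of 8 T and NK cell markers, none was above background on all arrays and Cd4 on no array, with sums of 1430 to 1886 in knockout and 1041 to 1501 in wild type. For B cells 1 of 4 markers and for neutrophils 2 of 7 were above background throughout. On the log2 scale, where 6249 of all 12393 genes were below 0 (lower in knockout), so were 8 of 8 stellate cell, 9 of 11 Kupffer cell and macrophage, 0 of 6 hepatocyte and 1 of 8 T and NK cell markers. The other lists were more evenly split. Below 0 were 2 of 4 B cell, 3 of 7 neutrophil, 2 of 5 erythroid, 4 of 8 endothelial and 3 of 5 cholangiocyte markers. The sums of all 9 marker lists overlapped between groups, and their part in the values of the cell cycle genes was not tested.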

How the data were processed

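Per the labels' protocols, total RNA of 6 livers was extracted, treated with DNase and labelled with biotin; arrays were processed with GCOS 1.2, per the submitters' processing notes. The authors deposited linear intensities, 1 per probe set and array; how these were scaled is not given here, but the mean after trimming 2% at each end was 2499.64 to 2499.67 on every array. Of 22690 probe sets, 64 controls were left out; 20380 had 1 gene, 691 several and 1555 none. Symbols were updated through RefSeq (GRCm38.p6) for 20351.

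All 22626 probe sets entered limma 3.58.1 (R 4.3.3; lmFit, eBayes with trend) on log2(intensity + 16), which understates changes of dim genes, with no covariate, and Benjamini-Hochberg adjustment at 0.05. SEs and 95% intervals are the fit's. With 3 arrays against 3, an exact permutation test cannot go below 0.1, so none was run; the number of arrays limits precision. Code was tested on simulated data. Alternatives were other pseudocounts, a filter, quantile normalization, median centring, no trend, a replicate block, the mean of probe sets and leaving out arrays. Genes and lists were chosen with earlier results of these data known. Array values were given for genes above background on all arrays, at unadjusted p under 0.05 or without overlap, for 6 standard markers, and for others where stated; up to 4 genes per further list were named by smallest p among genes above background on all 3 arrays of at least 1 group, plus Cdkn1a and Myc.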

Additional observations from a re-analysis of the deposited data

How the results depend on the processing

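The count of cell cycle genes past the adjusted threshold was 0 under every setting tried, and no single gene's difference larger than its standard error changed sign. Over all probe sets, 42 were called; the count was 0 without the intensity trend, 23 without knockout array 2, 15 without wild-type array 3, 14 without wild-type array 1, and 14 to 40 over all settings leaving out an array. Cell cycle genes at an unadjusted p under 0.05 numbered 4, 2 with all probe sets of a gene averaged, and 1 to 3 with an array left out. Their median difference ran from -0.16 to 0.015 with an array left out. The further cell cycle genes at an unadjusted p under 0.05 numbered 6, 3 in the upper 60% of probe sets, and 4 to 8 with an array left out. With the replicate number as a block, 30 probe sets and 0 cell cycle genes were called. Same-numbered arrays did not deviate together over all probe sets (correlations of deviations 0.011, 0.00062 and -0.024). The labels state no pairing, and these correlations cannot show whether samples were paired in another way. Weak signal over background limits most mitotic genes.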

Other observations

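Myc, a transcription factor that drives growth and entry into the cycle, varied more within the groups than between them. It read 287, 1975 and 641 in knockout and 250, 403 and 1808 in wild type, above background on all 6 arrays, so 1 array of each group stood well above the others. The groups differed by 0.32 ± 0.76 on the log2 scale (limma adjusted p = 0.950).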
